A study of Mus musculus with 12 samples.

Results

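The genes described here encode the collagens, the laminin chains and the integrin chains, the main structural proteins of the extracellular matrix and the receptors that bind them. They were chosen by symbol alone: a Col symbol of the form Col, number, a, number, the laminin alpha, beta and gamma chains, and the integrin alpha and beta chains whose symbols begin with Itga or Itgb. The pattern does not cover Itgam, Itgax and Itgad, alpha chains of leukocyte integrins, which are given separately. It found 78 of the 23253 genes in the table: 44 collagen genes, 11 laminin chains (5 alpha, 3 beta and 3 gamma) and 23 integrin chains (15 alpha and 8 beta). Of these, 77 passed the filter on low counts and were tested among 17909 genes. The network collagen gene Col8a2 did not pass. It had 78 counts in adult control, from 1 of the 3 libraries, and 0 in stroke, 2 in stroke labelled with siRNA and 15 in P4, groups that are explained next.

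RNA was sequenced from cells that the labels call cortical neurons sorted by flow cytometry from C57BL/6 mice, in 4 groups of 3 libraries. Adult control libraries came from adult animals without stroke. Stroke libraries came from adult animals with a photothrombotic stroke, in which the cortex is lit through the skull after the photosensitive dye rose bengal is given; here cold light for 15 min made a focal lesion 2 mm across. The group labelled PT-GDF10 had the same stroke and is labelled with siRNA against GDF10, a growth factor related to TGF-beta. It is called the siRNA-label group below, because Gdf10 counts were 0, 5 and 0 in stroke and 8, 7 and 1 in that group, too few to check a knockdown. The P4 group is labelled as an animal control. Its growth protocol, like that of the other groups, calls the mice adult; the adult groups below are the 3 whose source labels also say so. Neither the meaning of P4 nor the time between stroke and sampling is given in the labels, nor which sort marker was used, nor whether the libraries of a group came from separate animals. The p-values below therefore measure only the spread between these libraries.

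Collagens are built from 3 alpha chains wound into a triple helix. Fibril-forming types give tissue its strength, network types such as type IV form the sheet of the basement membrane, and FACIT collagens (fibril-associated collagens with interrupted helices) sit on the surface of fibrils. Laminins are cross-shaped trimers of an alpha, a beta and a gamma chain and are the other main component of basement membranes, which in the brain surround blood vessels and line the surface under the meninges. Integrins are pairs of an alpha and a beta chain in the cell membrane. They bind collagen, laminin or proteins with an arginine-glycine-aspartate (RGD) motif outside the cell, and connect to actin through talin, kindlin and the kinase ILK inside it.

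Total counts ranged from 10517638 to 48633350 per library, and adult control 3 had the fewest. Library numbers run from 1 to 3 in adult control and the siRNA-label group and from 4 to 6 in stroke and P4. A batch behind the numbering cannot be told apart from the group in stroke or P4 against adult control and in the siRNA-label group against stroke. The 15 neuron markers took 0.223 to 0.629% of counts in adult control, 0.163 to 0.212% in stroke, 0.152 to 0.270% in the siRNA-label group and 0.672 to 0.814% in P4. The 12 oligodendrocyte markers took 3.93 to 9.44%, 5.28 to 6.54%, 6.61 to 10.6% and 0.0118 to 0.0317% in the same order, so the label of neurons was not borne out in the 3 adult groups. Markers of the cells that make most vascular and meningeal matrix were scarce. The 14 endothelial markers took 0.00997 to 0.0160% of counts in adult control and stroke. The tight junction gene Cldn5 was at 0 in adult control and in the siRNA-label group, and was the only 1 of the 14 at 0 there. Slc2a1 was the highest of the 14 in adult control, at 79.7 ± 35.6 CPM, followed by Vwf at 13.3 ± 14.7 CPM. The 10 fibroblast and meningeal markers took 0.000267 to 0.00634% over all 12 libraries. The 45S ribosomal RNA precursor Rn45s took over 1% of counts in the 3 stroke libraries, adult control 2 and siRNA-label 3, and 0.00984 to 0.427% in the other libraries. Xist, the RNA that silences an X chromosome in female cells, was at 2045 to 3649 CPM in P4 and at 2.03 to 193 CPM in the other groups, so P4 and the adult groups were not matched for sex.

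Together the 78 genes took 0.165 to 0.196% of counts in adult control, 0.178 to 0.212% in stroke and 0.149 to 0.179% in the siRNA-label group. In P4 they took 0.0564 to 0.0636%, below every library of the other groups. Levels are given as CPM, counts scaled to 1e+06 per library with the library factors. Per group, 5 of the 78 genes (stroke), 4 (adult control), 4 (siRNA-label) and 0 (P4) had a mean of 100 CPM or more. A mean under 1 CPM was found for 18 (stroke), 4 (adult control), 11 (siRNA-label) and 16 (P4) genes. The median member had a mean of 6.01 CPM in adult control libraries, 3.09 in stroke libraries, 3.85 in the siRNA-label group and 2.14 in P4, and the map of all members shows that most rows are dark throughout. Adult control 3 held the highest CPM of 28 of the 78 genes (35.9%), against 19.7% of all tested genes. Several adult control means rest on that library.

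**Figure D1:**
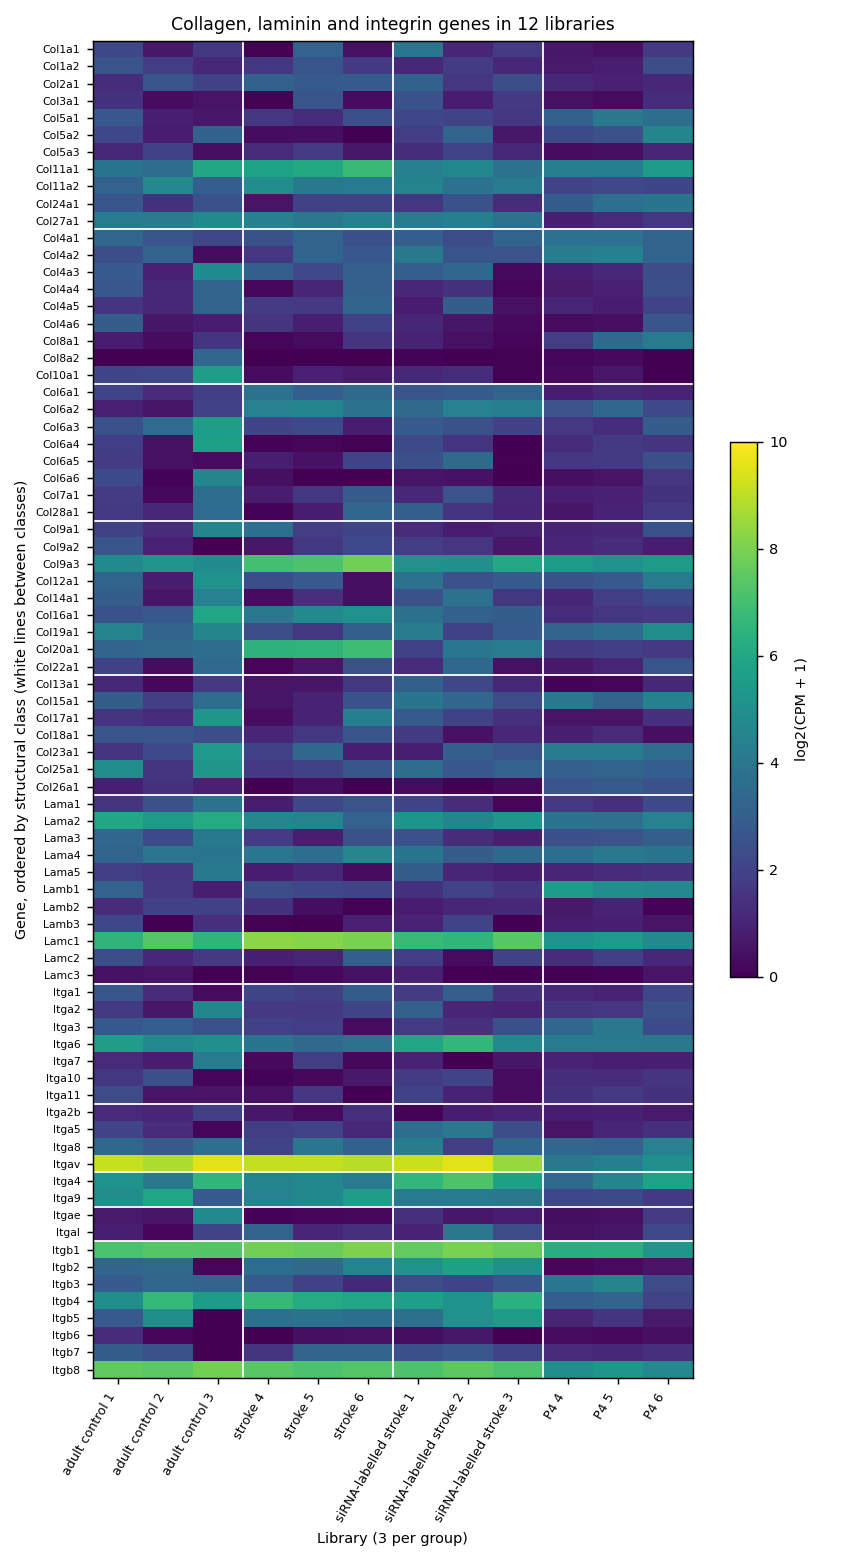
Colour gives log2(CPM + 1) of each of the 78 genes (rows, grouped by structural class, with white lines between classes) in each of the 12 libraries (columns, 3 per group). Itgav, Itgb1, Itgb8 and Lamc1 form the bright rows, Itgav turns dark in P4, and Col9a3 and Col20a1 are brightest in the 3 stroke libraries.

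To compare genes with each other, CPM was divided by exonic length in kb. In adult control the highest values were those of the integrin chains Itgav (53.8 ± 14.6 CPM per kb, SD, n = 3), Itgb1 (37.7 ± 3.13) and Itgb8 (17.8 ± 2.78), followed by the laminin chain Lamc1 (14.0 ± 5.13). The means of Itgav and Itgb1 differed by little more than the SD of Itgav, and those of Itgb8 and Lamc1 by less than the SD of Lamc1. Itgb1 encodes beta1, the partner of most collagen- and laminin-binding alpha chains. Itgav encodes alphaV, which pairs with beta1, beta3, beta5, beta6 or beta8 and binds RGD ligands, and the pair with beta8 is known for releasing TGF-beta from its latent form. In stroke the order was Itgb1 (57.4 ± 5.86), Itgav (48.5 ± 2.58), Col9a3 (43.9 ± 14.4), Lamc1 (34.2 ± 3.33) and Col20a1 (19.1 ± 3.3 CPM per kb). The means of Itgav and Col9a3 were closer to each other than the SD of Col9a3. In P4 the order was Itgb1 (15.6 ± 5.51), Col9a3 (10 ± 1.43), Lamc1 (4.02 ± 0.968) and Lamb1 (3.3 ± 0.947 CPM per kb), and Lamc1 and Lamb1 did not differ beyond their spread. Itgav was not among the first 8 in P4.

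The 250 bases upstream of a RefSeq transcript start are shown for the receptor chains with the highest levels, Itgav and Itgb1, and for a collagen higher in stroke, Col6a2, and one lower in P4, Col27a1. These 4 windows hold no annotated exon. Those of Itgb1 and Col6a2 end at the outer edge of the gene, while those of Itgav and Col27a1 lie inside the gene span given by RefSeq, before a start downstream of its first base. Col6a2 has a second window, not printed, of which 226 bases are exonic. The letters are those of RefSeq (GRCm38.p6, the assembly also called mm10), where 56 of the 78 genes had a promoter entry, in 62 windows. They are written 5′ to 3′ on the strand of the gene. Capitals mark the GC box GGGCGG, which Sp-family factors bind, and CAGACA, a motif of the SMAD proteins that act downstream of TGF-beta, on either strand.
Itgav (chr2:83724147-83724396, plus strand): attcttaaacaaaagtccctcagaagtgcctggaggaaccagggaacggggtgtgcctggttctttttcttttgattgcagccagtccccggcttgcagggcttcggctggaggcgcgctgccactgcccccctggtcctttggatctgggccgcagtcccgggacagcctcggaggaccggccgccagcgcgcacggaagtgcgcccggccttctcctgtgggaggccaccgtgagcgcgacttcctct
Itgb1 (chr8:128685404-128685653, plus strand): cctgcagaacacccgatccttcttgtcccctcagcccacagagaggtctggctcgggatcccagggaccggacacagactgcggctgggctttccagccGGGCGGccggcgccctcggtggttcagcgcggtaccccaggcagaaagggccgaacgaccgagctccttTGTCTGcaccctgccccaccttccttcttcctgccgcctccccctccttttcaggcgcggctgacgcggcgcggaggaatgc
Col6a2 (chr10:76623631-76623880, minus strand): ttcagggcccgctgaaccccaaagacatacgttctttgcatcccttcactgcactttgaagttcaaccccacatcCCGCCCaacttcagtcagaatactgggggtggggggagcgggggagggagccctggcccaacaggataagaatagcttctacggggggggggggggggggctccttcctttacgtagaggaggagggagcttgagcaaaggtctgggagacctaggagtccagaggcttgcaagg
Col27a1 (chr4:63215162-63215411, plus strand): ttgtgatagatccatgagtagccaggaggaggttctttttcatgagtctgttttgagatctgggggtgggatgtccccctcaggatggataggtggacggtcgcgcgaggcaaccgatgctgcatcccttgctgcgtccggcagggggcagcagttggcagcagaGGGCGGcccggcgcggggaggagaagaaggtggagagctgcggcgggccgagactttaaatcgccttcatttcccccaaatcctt
The GC box is found once in the printed windows of Itgb1, Col6a2 and Col27a1, is not in that of Itgav, and is found 3 times in the other Col6a2 window. CAGACA is found once in the Itgb1 window, as its reverse complement, and in none of the other windows printed. Over the members' windows, 48.4% held the GC box and 25.8% held CAGACA, against 32.7% and 17.1% of all 32851 windows of this length in the table. TATAAA was in 8.06% of the members' windows and 12.4% of all, CCAAT in 25.8% and 33.8%, and TGANTCA, the site of AP-1 factors, in 1.61% and 6.75%. These are matches of letters and were not tested.

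A test of any difference among the 4 groups called 22 of the 77 genes (28.6%), against 20.1% of all tested genes. The called genes were 11 collagens (Col20a1, Col9a3, Col27a1, Col6a2, Col10a1, Col6a1, Col16a1, Col6a4, Col26a1, Col8a1 and Col11a2), 3 laminin chains (Lamc1, Lamb1 and Lama2) and 8 integrin chains (Itgav, Itgb8, Itgb2, Itgb4, Itgb1, Itga6, Itga9 and Itgae). Of the called genes, Col10a1, Col16a1, Col6a4 and Itgae were at 47.0, 59.2, 50.4 and 25.5 CPM in adult control 3. They had at most 5.49 CPM in the other control libraries. The fibril collagen genes Col1a1, Col1a2 and Col3a1, the most abundant collagens of connective tissue, and the 6 type IV collagen genes were not called. Col1a1 ranged from 0.0345 to 14.4 CPM over the 12 libraries, and the highest library was siRNA-label 1.

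The comparison of stroke with adult control asked which of these genes differed after the lesion. Collagen genes Col9a3, Col20a1 and Col6a2 rose, and no collagen, laminin or integrin gene passed edgeR's test as lower. By edgeR the called members were 3 of 77, against 0.704% of all tested genes called in either direction, 0.486% higher and 0.218% lower. The authors' deposited table calls 4 members higher and 6 lower, where 3.02% of its genes are called. DESeq2 called 15 members, 5 higher and 10 lower. The share of all genes that DESeq2 called is not given here, so its count has no background beside it. Libraries of stroke and adult control did not overlap for 20 of the 77 members and for 3590 of the 17909 tested genes (20.0%). The median log2 fold change was -0.52 over the members and -0.08 over all tested genes, and 26 members had a positive and 51 a negative value.

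Col9a3 encodes 1 of the 3 chains of type IX collagen, a FACIT collagen best known from cartilage (chromosome 2, 180598102 to 180622192, mm10). Its level was 25.7, 36.2 and 28.3 CPM in adult control, 129, 146 and 233 CPM in stroke, 32.2, 31.8 and 64.8 CPM in the siRNA-label libraries and 42.9, 33.5 and 43.1 CPM in P4. The 3 stroke libraries stood above the other 9, and the siRNA-label and P4 libraries overlapped in level. Stroke was higher than adult control by 2.49 on the log2 scale (169 ± 55.6 against 30.1 ± 5.45 CPM, SE 0.39, adjusted p = 0.00935, edgeR's quasi-likelihood test). The other chains of type IX collagen were low: Col9a1 was at 5.80 ± 5.01 CPM in stroke and 8.91 ± 11.8 in adult control, where adult control 3 had 22.5 CPM, and Col9a2 ranged from 0 to 5.27 CPM over the 12 libraries. A stretch of 234 exonic bases of Col9a3 lies opposite Tcfl5 on the other strand, and the strand setting of the counts is not given in the sources used here.

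Col20a1, another FACIT collagen gene, lies 361 kb downstream on the same chromosome (180983323 to 181017545). Its level was 8.49, 9.96 and 10.9 CPM in adult control libraries, 86.3, 90.1 and 117 CPM in stroke libraries, 2.91, 14.1 and 15.9 CPM in the siRNA-label libraries and 2.23, 2.68 and 2.15 CPM in P4. Stroke libraries were again the highest, P4 libraries were the lowest, and the siRNA-label libraries fell on both sides of adult control. Stroke was higher than adult control by 3.32 (98.0 ± 17.0 against 9.80 ± 1.24 CPM, SE 0.55, adjusted p = 0.0131).

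Col6a2 encodes the alpha2 chain of type VI collagen, which forms beaded filaments around cells (chromosome 10, 76595756 to 76623630, minus strand; promoter window above). Its level was 0.872, 0.522 and 2.85 CPM in adult control libraries, 20.5, 21.9 and 13.2 CPM in stroke libraries, 10, 20.6 and 18.5 CPM in the siRNA-label libraries and 4.85, 8.78 and 3.61 CPM in P4. Both stroke groups stood above all libraries of adult control and P4 and overlapped each other. Stroke was higher than adult control by 3.77 (18.6 ± 4.70 against 1.42 ± 1.26 CPM, SE 0.74, adjusted p = 0.0328). Its neighbour Col6a1, 85.2 kb away and the alpha1 chain of the same trimer, was at 3.05, 1.32 and 2.62 CPM in adult control and 12.8, 6.92 and 9.88 CPM in stroke. These libraries did not overlap either, but Col6a1 did not pass (2.08, SE 0.69, adjusted p = 0.181). Col6a3, the remaining chain of that trimer, had 4.72, 10 and 47.0 CPM in adult control and 3.24, 3.75 and 0.760 CPM in stroke (-2.99, SE 0.95, adjusted p = 0.165).

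The 3 calls in stroke depended on single libraries and on 1 added term, and that of Col6a2 also on fitting all 4 groups: in a fit of stroke and adult control alone its adjusted p was 0.175 (log2 fold change 3.70), while Col9a3 and Col20a1 passed. With the class of Rn45s share (over 1% of counts or not) in the model, chosen after the data were seen, adjusted p was 0.102 for Col9a3, 0.145 for Col20a1 and 0.160 for Col6a2, with log2 fold changes of 2.02, 2.98 and 4.26. All stroke libraries are in the high class, so this term rests on adult control 2 and siRNA-label 3 against the other libraries of their groups. Over all 12 alternatives adjusted p ran up to 0.102 for Col9a3, 0.145 for Col20a1 and 0.175 for Col6a2. Without adult control 1 or without stroke 6, 0 members were called. Without stroke 4 only Col9a3 was called, and the same held without stroke 5. Without adult control 2 the count was 7. The share of all genes called in each of these fits is not given here, so these counts have no background beside them. Markers of oligodendrocyte precursors took 0.344 to 0.640% of counts in adult control, 0.503 to 0.735% in stroke and 0.270 to 0.389% in the siRNA-label group, and 0 of those 10 markers were at 0 counts in a group. The 10 mural cell markers took 0.00591 to 0.0292% in adult control and 0.00606 to 0.00972% in stroke. That share was mostly Cspg4, also on the precursor list, at 90.8 ± 121 CPM in adult control and 66.5 ± 8.49 in stroke. The other mural markers had means of at most 11.4 CPM in these groups. Of the 9 mural markers tested, 7 had a negative and 2 a positive log2 fold change, with a median of -1.88. By edgeR 0 were called, and 4 had an unadjusted p under 0.05, against 15.9% of all tested genes. The part of either cell type in these results was not tested. Fewer cells of a type and less RNA per cell cannot be told apart in such bulk libraries.

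**Figure D2:**
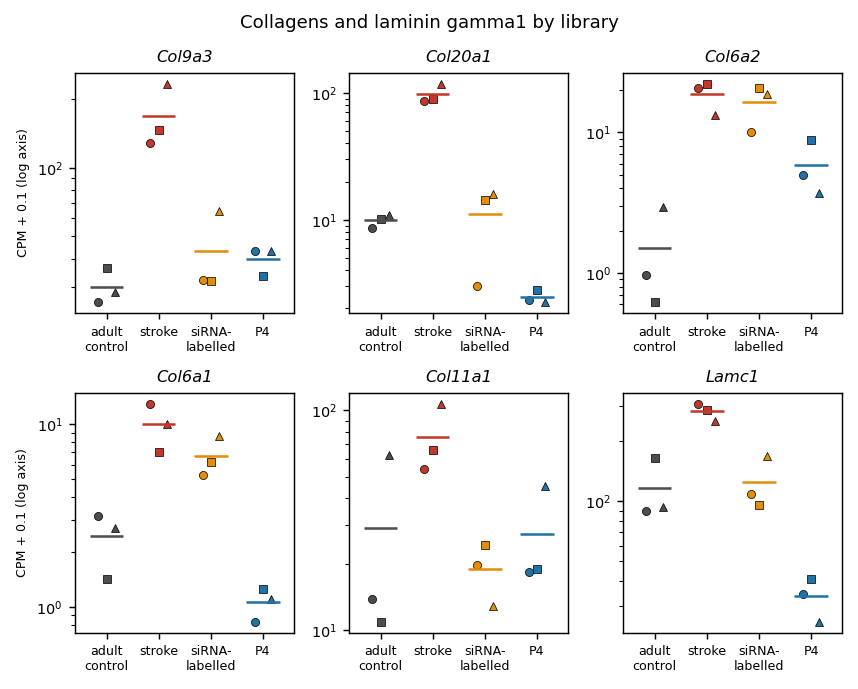
Each point is 1 library (CPM + 0.1, log axis, a separate scale per panel), with a different symbol for each of the 3 libraries of a group, and bars give group means. For Col9a3 and Col20a1 the 3 stroke libraries lie above all others, for Col6a2 and Col6a1 both stroke groups lie above adult control, Col11a1 is high in 1 adult control library, and Lamc1 is highest in stroke and lowest in P4.

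The next members by p in stroke were not called. Of these, Lamc1 and Col6a4 each gained a call in 2 of 12 alternatives. Lamc1, the gamma1 chain found in most laminins (chromosome 1, 153218922 to 153332786), was at 89.8, 165 and 93.3 CPM in adult control libraries, 308, 287 and 253 CPM in stroke libraries, 109, 95.9 and 169.7 CPM in the siRNA-label libraries and 34.2, 40.8 and 24.8 CPM in P4. Stroke did not overlap with any other group, yet the difference from adult control (1.28, SE 0.35) had an adjusted p of 0.114. Col6a4, a chain related to Col6a3, differed by -7.81 on the log2 scale (SE 1.98, adjusted p = 0.0935), which rested on adult control 3: its level there was 50.4 CPM, with 2.58 and 0.348 CPM in the other control libraries and 6 counts in all of stroke. Col6a4, Col6a5 and Col6a6 are related genes close together on chromosome 9. How reads matching more than 1 of them were counted is not given, and whether counts were split between them was not tested. Lama2, the alpha2 chain of the laminin of muscle and brain vessels, was at 62.8, 42.8 and 70.9 CPM in adult control and 24.0, 21.0 and 7.76 CPM in stroke (-1.74, SE 0.47, adjusted p = 0.115). Itga6, the laminin receptor chain alpha6, was at 47.8, 26.8 and 31.7 CPM against 13.3, 10 and 12 CPM (-1.58, SE 0.48, adjusted p = 0.151). For Lama2 and Itga6 every stroke library lay below every adult control library. Of 12 astrocyte markers, 6 were called lower in stroke and 0 higher, against 0.218% and 0.486% of all tested genes. Together they took 0.430 to 0.644% of counts in adult control and 0.0637 to 0.0908% in stroke; their part in the values of Lama2 and Itga6 was not tested.

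Among the classes, 2 of 9 FACIT collagens (Col9a3 and Col20a1) and 1 of 8 beaded-filament and anchoring collagens (Col6a2) were called in stroke. Over all tested genes, 0.486% were called higher and 0.218% lower. These are the same calls as above, with the same dependence on single libraries and on the Rn45s term. None of the 11 fibril-forming, 8 tested network-forming or 7 transmembrane, multiplexin and other collagens passed, nor did any of the 11 laminin or 23 integrin chains. Col11a1, a chain of the thin fibrils of cartilage, was at 13.8, 10.8 and 62.4 CPM in adult control and 54.2, 66.2 and 107 CPM in stroke, and adult control 3 overlapped with stroke (1.39, SE 0.63, adjusted p = 0.299). Col4a1 and Col4a2, the chains of the common type IV collagen network, are transcribed in opposite directions from overlapping ends on chromosome 8. Col4a1 was at 8.88, 5.24 and 3.42 CPM in adult control and 4.63, 8.17 and 4.45 CPM in stroke, and Col4a2 at 4.28, 8.62 and 0.228 CPM against 2.00, 8.36 and 5.59 CPM. Both overlapped between the groups. Col25a1, a transmembrane collagen of neurons that is found in amyloid plaques, was at 28.7, 1.86 and 38.2 CPM in adult control and 2.17, 2.82 and 5.43 CPM in stroke, with overlap (-2.72, SE 0.84, adjusted p = 0.155).

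The comparison of the siRNA-label group with stroke asked whether the labelled treatment changed these genes after the lesion. No member passed edgeR's test, where 0.00558% of all tested genes did. At an unadjusted p under 0.05 there were 11 members of 77, against 7.37% of all tested genes. DESeq2 called 4 members and a fit of these 2 groups alone called 5. The share of all genes that each of them called is not given here. The libraries did not overlap for 16 of the 77 members and for 2845 of the 17909 tested genes (15.9%). The median log2 fold change was 0.14 over the members and 0.04 over all genes. This comparison and the previous one share the 3 stroke libraries, so values that differ in opposite directions in both are not independent.

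Col20a1 and Col9a3 had the smallest p of the members, at ranks 2 and 7 of all tested genes. Col20a1 was at 10.9 ± 7.02 CPM in the siRNA-label group and 98.0 ± 17.0 in stroke (-3.16, SE 0.55, adjusted p = 0.275), and Col9a3 at 43.0 ± 18.9 against 169 ± 55.6 CPM (-1.98, SE 0.39, adjusted p = 0.303). For both genes every siRNA-label library, listed above, lay below every stroke library. Over the 12 alternatives adjusted p ran from 5.67e-06 to 1.00 for Col20a1 and from 0.000428 to 1.00 for Col9a3. Both genes were called by DESeq2 and by the fit of the 2 groups, and by none of the others. Lamc1 was at 125 ± 39.3 against 283 ± 27.5 CPM (-1.18, SE 0.35, adjusted p = 0.525), without overlap. Col11a1 was at 19.7, 24.4 and 12.7 CPM against 54.2, 66.2 and 107 CPM in stroke (-2.00, SE 0.64, adjusted p = 0.568).

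Of the receptor chains, Itga6 was at 58.8, 97.7 and 25.0 CPM in the siRNA-label libraries against 13.3, 10 and 12 CPM in stroke (2.35, SE 0.49, adjusted p = 0.379). Itga4, the alpha4 chain that binds VCAM-1 and fibronectin on leukocytes, was at 96.2, 148 and 51.7 CPM against 21.2, 24.4 and 16.1 CPM (2.26, SE 0.69, adjusted p = 0.549). Every siRNA-label library was above every stroke library for both, and adult control overlapped with the siRNA-label libraries. Over 12 alternatives, Itga6 gained a call in 2 and Itga4 in 1. Itgal, the alpha chain of LFA-1 on leukocytes, was at 0.990, 15.2 and 3.84 CPM against 8.15, 1.12 and 1.52 CPM and overlapped. The 14 microglia and macrophage markers took 0.198 to 0.388% of counts in the siRNA-label group and 0.0408 to 0.140% in stroke. Those of oligodendrocytes took 6.61 to 10.6% and 5.28 to 6.54%. All 14 microglia and macrophage markers had a positive log2 fold change. Of the 12 oligodendrocyte markers, 7 had a positive and 5 a negative value, with a median of 0.15. No marker of either list was called, and 0 were at 0 counts in these groups. Their part in the values of these receptor chains was not tested.

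**Figure D3:**
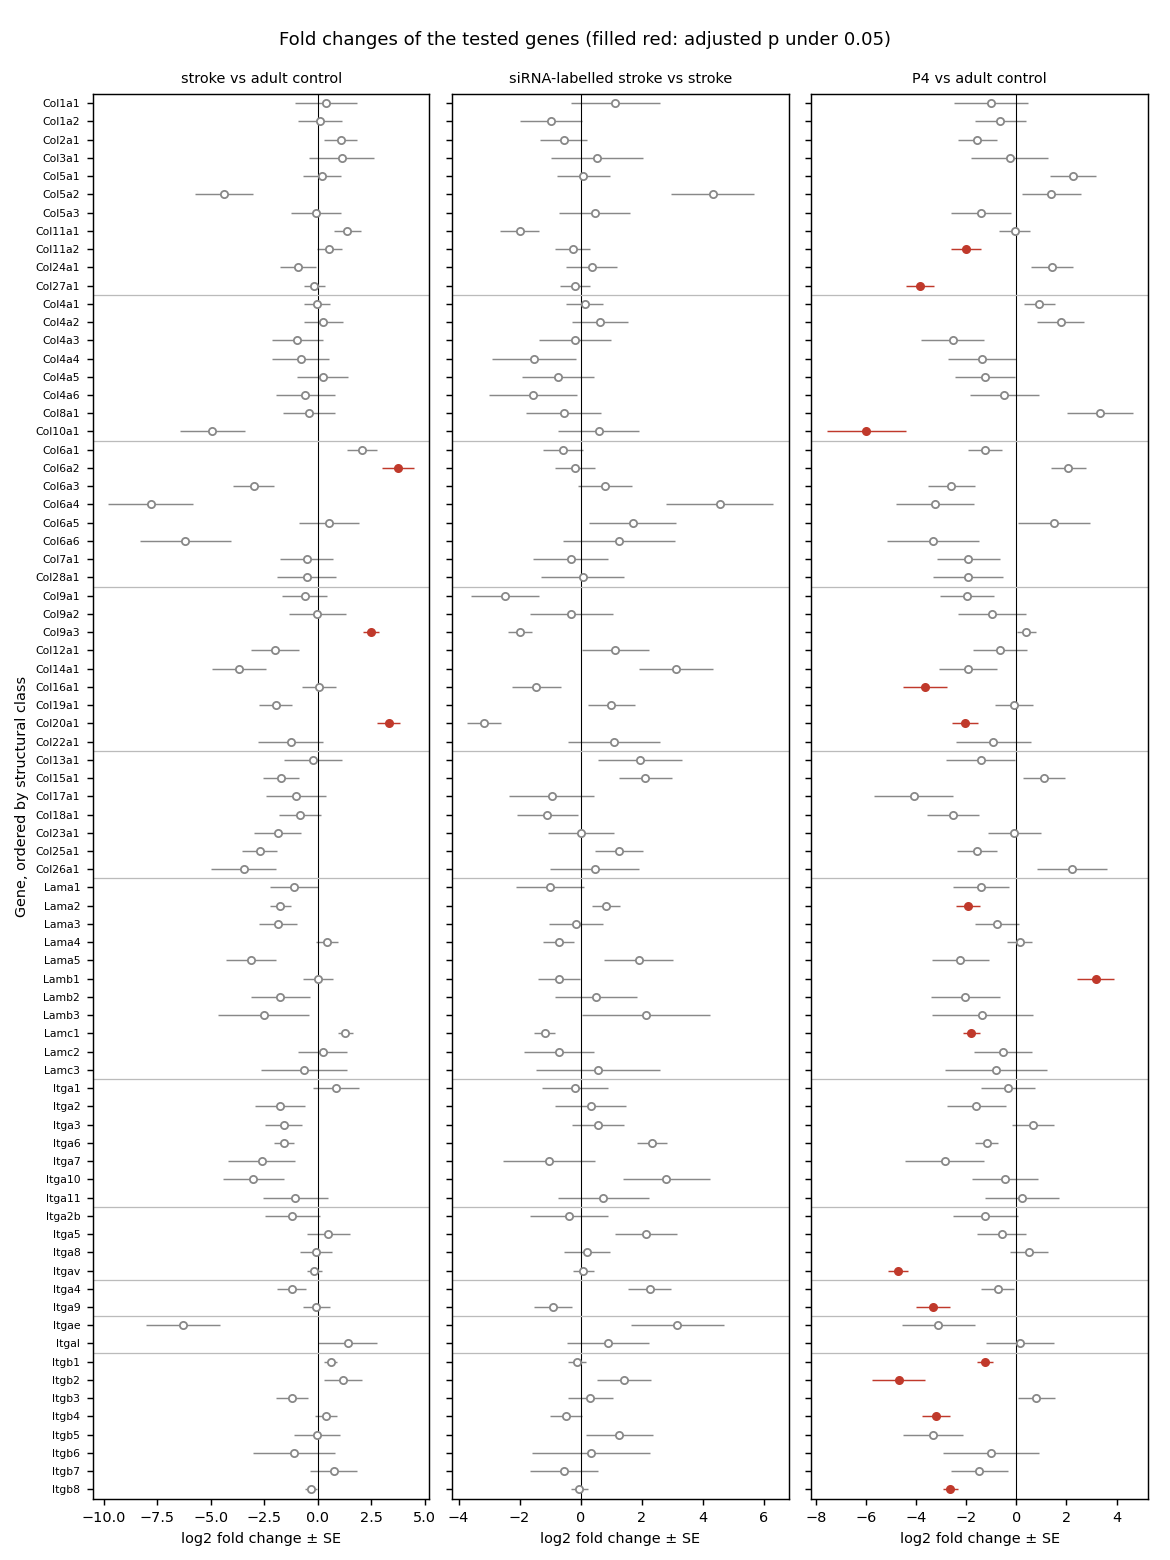
Points give the log2 fold change of each of the 77 tested genes (rows, by structural class) with its SE as a bar, for stroke against adult control, the siRNA-label group against stroke, and P4 against adult control; filled red points passed an adjusted p under 0.05, and each panel has its own axis. There are 3 filled points in the first panel, 0 in the second and 14 in the third, where 13 lie left of 0.

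The siRNA-label group was also set against adult control, to see what differed in stroke with that label. No member passed edgeR's test, against 0.117% of all tested genes (0.0838% higher and 0.0335% lower). At an unadjusted p under 0.05 there were 11 members, against 8.36% of all tested genes, and DESeq2 called 1. Col6a2 had the smallest p, at 16.4 ± 5.61 against 1.42 ± 1.26 CPM (3.59, SE 0.74, adjusted p = 0.0985), with no overlap. It was called without adult control 3 (log2 fold change 4.56, adjusted p = 0.0239) and by DESeq2, and adjusted p ran from 4.38e-05 to 1.00 over its alternatives. Itgb2, the beta2 chain that leukocyte integrins share, was at 32.9, 51.3 and 31.1 CPM against 8.60, 10 and 0.114 CPM (2.60, SE 0.93, adjusted p = 0.455). Itga5, the alpha chain of the fibronectin receptor, was at 11.3, 14.8 and 4.10 CPM against 3.21, 1.42 and 0.114 CPM (2.64, SE 1.04, adjusted p = 0.501). Itgb2 and Itga5 were higher in every siRNA-label library than in any adult control library without passing the test. Microglia and macrophage markers took 0.198 to 0.388% of counts in the siRNA-label group and 0.0681 to 0.124% in adult control. For 10 of those 14 markers the libraries did not overlap, against 10.8% of all tested genes, and none passed edgeR's test (8 had an unadjusted p under 0.05). Their part in the values of Itgb2 was not tested. Col10a1 (-4.32, SE 1.47, adjusted p = 0.430) and Col9a1 (-3.10, SE 1.15, adjusted p = 0.462) were highest in adult control 3, at 47.0 and 22.5 CPM, with at most 3.48 CPM in the other control libraries.

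The comparison of P4 with adult control asked how these genes differed between both control groups. P4 had 1 member higher and 13 lower. These 14 of 77 compare with 16.8% of all tested genes called, 6.32% higher and 10.4% lower. The median log2 fold change was -1.25 over the members and -0.16 over all tested genes, and 59 members had a negative value. Libraries did not overlap for 25 of the 77 members, against 32.1% of all tested genes. Receptor chains made up 6 of the 13 lower members: Itgav, Itgb8, Itgb4, Itga9, Itgb2 and Itgb1. The other lower members were Lamc1, Lama2, Col27a1, Col16a1, Col20a1, Col10a1 and Col11a2, and the higher member was Lamb1.

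Itgav (chromosome 2, 83722303 to 83806917) had the smallest p. Its level was 549, 438 and 747 CPM in adult control libraries, 540.5, 534 and 489.5 CPM in stroke libraries, 586, 727 and 348 CPM in the siRNA-label libraries and 14.7, 19.1 and 31.7 CPM in P4. The adult groups overlapped each other, and the highest P4 library was far below the lowest adult library. P4 was lower than adult control by 4.73 on the log2 scale (log2 fold change -4.73, SE 0.41, adjusted p = 2.10e-06), and adjusted p was at most 0.00142 under every alternative run. A predicted gene on the other strand, Gm13684, shares 634 exonic bases with Itgav. Its partner chain Itgb8 was at 188, 172 and 231 CPM in adult control and 30.1, 38.6 and 24.9 CPM in P4 (-2.65, SE 0.30, adjusted p = 2.54e-05). Of the other partners of alphaV, Itgb1 was at 139, 164 and 158 CPM in adult control against 75.0, 78.2 and 37.7 CPM in P4 (-1.27, SE 0.32, adjusted p = 0.0116). Itgb3 was at 6.58, 8.87 and 8.21 CPM against 14.4, 22.8 and 4.06 CPM in P4, with overlap, and did not pass. Itgb5 was at 5.99, 30.9 and 0 CPM against 1.07, 1.94 and 0.634 CPM (-3.33, SE 1.19, adjusted p = 0.0708). Of these partners of alphaV, Itgb8 and Itgb1 were called lower in P4 and Itgb3 and Itgb5 were not called.

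Itgb4, the beta4 chain that pairs with alpha6 in laminin-binding hemidesmosomes, was at 30.4, 99.2 and 45.4 CPM in adult control and 6.87, 8.62 and 3.11 CPM in P4 (-3.23, SE 0.56, adjusted p = 0.000914). Itga9, whose protein binds tenascin-C and osteopontin, was at 29.9, 58.3 and 6.50 CPM against 3.48, 3.69 and 2.28 CPM (-3.32, SE 0.68, adjusted p = 0.00317). Itgb4 and Itga9 had no overlap between these groups. Itgb2 was at 8.60, 10 and 0.114 CPM against 0.0936, 0.238 and 0.444 CPM (-4.71, SE 1.06, adjusted p = 0.00633), and adult control 3 overlapped with P4. It did not pass in the fit of the 2 groups alone (adjusted p = 0.0995, the highest of its alternatives, the lowest being 1.37e-05).

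**Figure D4:**
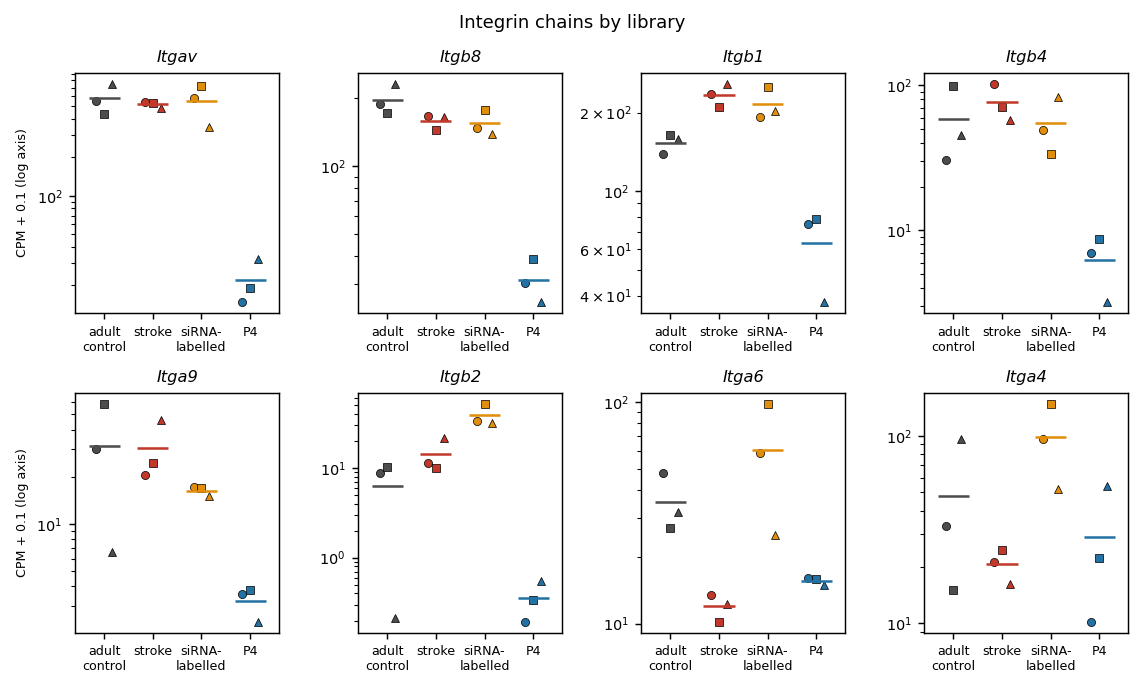
Each point is 1 library (CPM + 0.1, log axis, a separate scale per panel), with a different symbol for each of the 3 libraries of a group, and bars give group means. Itgav, Itgb8, Itgb1, Itgb4 and Itga9 lie lower in the 3 P4 libraries than in adult control, and Itga6 and Itga4 lie higher in the siRNA-label libraries than in stroke.

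Of the matrix genes, Lamb1, the beta1 chain of the laminins of early development, was at 7.81, 2.16 and 0.798 CPM in adult control libraries, 4.28, 3.52 and 3.15 CPM in stroke libraries, 1.79, 3.01 and 1.91 CPM in the siRNA-label libraries and 43.4, 29.3 and 25.5 CPM in P4. The 3 P4 libraries lay above the other 9. P4 was higher than adult control by 3.17 (32.8 ± 9.39 against 3.59 ± 3.72 CPM, SE 0.74, adjusted p = 0.00809). Lamc1 went the other way, at 33.3 ± 8.01 against 116 ± 42.5 CPM (-1.80, SE 0.35, adjusted p = 0.00238), and Lama2 was at 13.5, 12.6 and 20.5 CPM in P4 against 62.8, 42.8 and 70.9 CPM (-1.92, SE 0.48, adjusted p = 0.0114). Col27a1, a fibril collagen of cartilage, was at 16.1, 17.7 and 26.7 CPM in adult control libraries, 19.4, 15.2 and 20.0 CPM in stroke libraries, 16.9, 18.8 and 12.6 CPM in the siRNA-label libraries and 0.824, 1.35 and 2.09 CPM in P4. All P4 libraries were below all 9 adult libraries, and P4 was lower than adult control by 3.84 (log2 fold change -3.84, SE 0.56, adjusted p = 0.000216). Col16a1, a FACIT collagen, was called (-3.65, SE 0.88, adjusted p = 0.00996), but adult control 3 was at 59.2 CPM and the other control libraries at 4.80 and 5.49 CPM. Without that library its log2 fold change was -1.49 and adjusted p 0.0632; over its alternatives adjusted p ran from 9.21e-05 to 0.0785.

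Per kb of exon, Lamc1 was above every alpha and beta laminin chain in adult control, stroke and the siRNA-label group. In adult control, Lamc1 was at 14.0 ± 5.13, Lama2 at 3.60 ± 0.885, Lama4 at 1.01 ± 0.275 and Lama1 at 0.674 ± 0.587 CPM per kb (SD, n = 3). No beta chain reached 1 CPM per kb there. In P4, Lamc1 (4.02 ± 0.968), Lamb1 (3.3 ± 0.947), Lama4 (1.10 ± 0.153) and Lama2 (0.950 ± 0.263 CPM per kb) were the highest chains. Lama1, the alpha1 chain of the first laminin of the embryo, ranged from 0.725 to 4.83 CPM in stroke, 0.116 to 3.03 in the siRNA-label group, 1.57 to 3.61 in P4 and 1.94 to 12.9 in adult control. All groups overlapped for Lama1.

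**Figure D5:**
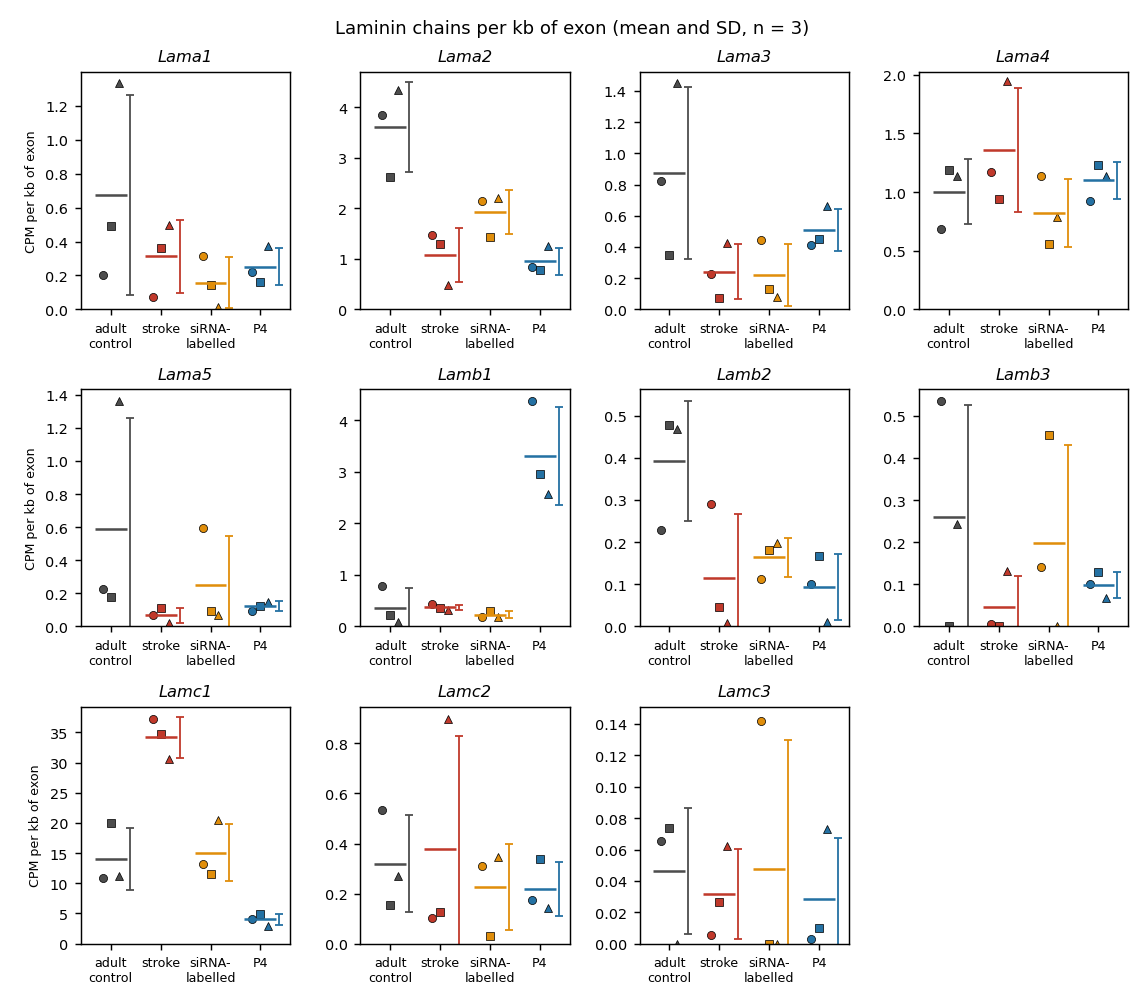
Each point is 1 library (CPM per kb of exon, linear axis from 0, a separate scale per panel), with a different symbol for each of the 3 libraries of a group; horizontal lines are group means and bars to their right give the SD, cut at 0. Lamb1 is high in P4 alone, Lamc1 is highest in stroke, and Lama2 is highest in adult control.

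The comparison of stroke with P4 shares each group with an earlier comparison, so its values are set beside those and support nothing more. It called 18 of 77 members, 14 higher and 4 lower in stroke, against 18.8% of all tested genes called, 10.8% higher and 7.94% lower. Libraries did not overlap for 34 of the 77 members, against 44.4% of all tested genes. Stroke was above P4 for Itgav (4.58, SE 0.41), Itgb8 (2.35, SE 0.30), Itgb4 (3.62, SE 0.57) and Itgb1 (1.88, SE 0.32) among receptor chains. The same held for Lamc1 (3.09, SE 0.37), Col20a1 (5.37, SE 0.61), Col27a1 (3.69, SE 0.56) and Col9a3 (2.09, SE 0.39) among matrix genes. Adjusted p lay between 1.93e-06 for Itgav and 0.00126 for Col9a3. The call of Col9a3 was lost in 1 of 13 alternatives, with adjusted p up to 0.0842. Those of the other genes just named were kept in all of them. The other higher members were Itgb2, Itga9, Col6a1, Col16a1, Col11a2 and Col2a1.

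Stroke was below P4 for Lamb1 (-3.16, SE 0.74, adjusted p = 0.00685), Col5a2, Col26a1 and Col15a1. Col5a2, a chain of the thin fibril collagen type V, was at 0.242, 0.288 and 0 CPM in stroke and 3.80, 4.58 and 22.6 CPM in P4 (-5.77, SE 1.44, adjusted p = 0.0103). Col26a1 had 9 counts in all of stroke, from 1 library, and 662 in P4, at 5.3, 6.04 and 4.69 CPM there (adjusted p = 0.0262). Col15a1, a multiplexin of vascular basement membranes, was at 0.483, 0.961 and 4.67 CPM in stroke against 14.6, 8.18 and 20.2 CPM in P4 (-2.82, SE 0.90, adjusted p = 0.0387). These collagens did not overlap between stroke and P4. Col26a1 and Col15a1 each passed in 1 of 6 fits that left out a library, and Col5a2 in 5 of 6, being lost without P4 6. With the Rn45s class in the model 0 members were lower in stroke and 12 were higher. The share of all genes called with that term is not given here. All stroke libraries are in the high class and all P4 libraries in the low class. The term therefore rests on adult control 2 and siRNA-label 3 against the other libraries of their groups.

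Markers of glia moved with the P4 comparisons. All 12 oligodendrocyte markers, all 10 of oligodendrocyte precursors, 13 of 14 of microglia and macrophages and 8 of 12 of astrocytes were lower in P4 than in adult control, against 10.4% of all tested genes, and 5 of 15 neuron markers were higher, against 6.32%. Precursor markers took 0.0723 to 0.115% of counts in P4 against 0.344 to 0.640% in adult control, and microglia and macrophage markers 0.00212 to 0.00390% against 0.0681 to 0.124%. Their part in the lower levels of the integrin and laminin chains was not tested.

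Genes that process, bind or signal from these proteins were taken from lists of their own. In stroke against adult control, 2 of 26 genes of the integrin adhesion machinery rose and 0 fell, against 0.486% and 0.218% of all tested genes. Fyn, a kinase that integrins activate, was at 166, 217 and 131 CPM in adult control and 795, 645 and 1317 CPM in stroke (2.42, SE 0.34, adjusted p = 0.00435). Parvb, beta-parvin, a partner of ILK, was at 35.6, 57.7 and 3.31 CPM against 354, 344 and 542 CPM (3.68, SE 0.76, adjusted p = 0.0390). Every stroke library was above every other library of the series for both. In the siRNA-label group Fyn was at 253, 279 and 413 CPM (against stroke -1.54, SE 0.33, adjusted p = 0.379), and Tns3, tensin-3, at 351 ± 126 against 864 ± 195 CPM (-1.30, SE 0.34, adjusted p = 0.445). Ptk2, the focal adhesion kinase, had 166 ± 8.0 CPM in stroke and 146 ± 47.1 in adult control. In P4, 11 of the 26 were lower and 0 higher than in adult control, against 10.4% and 6.32% of all tested genes. Among the lower genes were Tln1, talin-1 (6.65 ± 2.02 against 48.7 ± 46.5 CPM, -2.87, SE 0.66, adjusted p = 0.00697), and Tns3 (-2.93, SE 0.36). Against P4, 14 of the 26 were higher in stroke and 0 lower, against 10.8% and 7.94% of all tested genes.

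Of 22 basement membrane and matrix partners, 1 rose in stroke, against 0.486% of all tested genes. Spp1, osteopontin, a secreted integrin ligand, was at 3.21, 2.14 and 4.11 CPM in adult control, 68.6, 76.5 and 16.9 CPM in stroke and 77.4, 420.1 and 43.6 CPM in the siRNA-label libraries. It was higher in stroke (4.12, SE 0.79, adjusted p = 0.0287) and in the siRNA-label group (5.86, SE 0.86, adjusted p = 0.0199) than in adult control, and both comparisons share those controls. Tnr, tenascin-R of the matrix around neurons, was at 252, 679 and 292 CPM in adult control, 1143, 964 and 1506 CPM in stroke and 334, 343 and 504 CPM in the siRNA-label libraries; stroke stood above both without passing (adjusted p = 0.119 and 0.456). Sparcl1, a matrix protein of astrocytes, was at 183 ± 56.5 against 471 ± 181 CPM (-1.37, SE 0.36, adjusted p = 0.103), and Thbs1, thrombospondin-1, at 33.1 ± 31.4 CPM in the siRNA-label group against 4.10 ± 1.25 in stroke (3.01, SE 0.82, adjusted p = 0.485). In P4, 3 of the 22 were higher than in adult control and 5 lower, against 6.32% and 10.4% of all tested genes. The higher genes were Fn1, fibronectin (66.5 ± 27.5 against 10.5 ± 5.23 CPM, 2.66, SE 0.64), Tnc, tenascin-C (45.9 ± 5.78 against 8.15 ± 5.97 CPM, 2.50, SE 0.75), and Agrn, agrin (198 ± 69.0 against 65.9 ± 23.4 CPM, 1.58, SE 0.37). The lower genes were Efemp1, Sparc, Tnr, Hspg2 and Sparcl1. Stroke against P4 had 4 of the 22 higher and 4 lower (10.8% and 7.94% of all tested genes).

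None of the 23 tested genes of collagen processing and crosslinking passed in stroke against adult control or in the siRNA-label group against stroke. P4ha1, a prolyl hydroxylase that stabilises the collagen helix, was at 37.6 ± 7.01 CPM in stroke and 93.8 ± 28.5 in adult control (-1.32, SE 0.44, adjusted p = 0.181). Loxl2, a crosslinking oxidase, was at 0.444 ± 0.572 against 6.18 ± 9.18 CPM, with overlap; adult control 3 was at 16.8 CPM and the other control libraries at 0.397 and 1.39 CPM. Lepre1, a prolyl hydroxylase, and Loxl3 were at 4.17 ± 1.38 and 3.42 ± 2.06 CPM in the siRNA-label group against 12.8 ± 5.27 and 8.63 ± 6.21 CPM in stroke. P4 had 4 of 23 lower than adult control and 0 higher, against 10.4% and 6.32% of all tested genes, and stroke against P4 had 4 higher and 1 lower, against 10.8% and 7.94%.

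Of 17 tested proteases and inhibitors, none passed in these stroke comparisons. Adam17, a sheddase, was at 105 ± 13.4 CPM in stroke against 57.7 ± 15.2 in adult control (0.86, SE 0.31, adjusted p = 0.210), and Timp2, a protease inhibitor, at 266 ± 73.4 against 157 ± 36.7 CPM (0.76, SE 0.30, adjusted p = 0.244). Timp1 had 1.83 ± 1.27 CPM in the siRNA-label group and 0.241 ± 0.240 in stroke, and Adam12 had 28.8 ± 1.90 against 45.9 ± 5.99 CPM. P4 had 1 of 17 higher and 4 lower than adult control, against 6.32% and 10.4% of all tested genes, and stroke against P4 had 5 higher and 1 lower, against 10.8% and 7.94%. The 3 leukocyte alpha chains outside the symbol pattern did not pass in either stroke comparison. Itgam, the alpha chain of Mac-1 on microglia, was at 69.9, 116 and 121 CPM in adult control libraries, 44.9, 45.9 and 128 CPM in stroke libraries, 179, 325 and 115 CPM in the siRNA-label libraries and 0.580, 1.51 and 1.20 CPM in P4. Itgax was at 12.6 ± 7.14 CPM in the siRNA-label group against 1.35 ± 1.55 in stroke (3.21, SE 1.24, adjusted p = 0.624), and Itgad at 2.07 ± 1.13 CPM in stroke against 6.75 ± 7.40 in adult control, where adult control 3 had 15.3 CPM and the other libraries 2.93 and 2.04 CPM. Of these 3, Itgam was lower in P4 than in adult control (-6.55, SE 0.64, adjusted p = 6.60e-06).

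The authors' deposited table gives calls of its own. At a false discovery rate under 0.05, the authors' deposited table calls 10 members in stroke against adult control (4 higher and 6 lower), where 3.02% of its genes are called. In the siRNA-label group against stroke, the authors' deposited table calls 3 members (1 higher and 2 lower; 0.159% of genes). For P4 against adult control it is 19 members in the authors' deposited table (3 higher and 16 lower; 15.4% of genes). In the siRNA-label group against adult control the authors' deposited table calls 1 member (higher; 0.839% of genes), and in stroke against P4 it calls 22 (15 higher and 7 lower; 16.6% of genes).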

How the data were processed

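Per the labels' protocols, RNA of 12 libraries was amplified with an Ovation kit (RNA-seq System v2) and read in pairs of 69 bp. CASAVA 1.8.2, edgeR and mm10 are named in the submitters' processing notes. How reads were aligned and counted, on which annotation and with which strand setting, is not given in the sources used here. Raw read counts per gene, as deposited by the authors, were the values analysed. The authors' log2 fold changes and p-values with false discovery rates, deposited for each pair of groups, were only counted. Another 30 columns of values per library were not used. The first P4 column is named P3 and was matched by its replicate number.

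Counts were analysed in R 4.3.3. filterByExpr by group left 17909 of 23253 genes, and 12 libraries were scaled with TMM factors and fitted with 1 mean per group by edgeR 4.0.16 (quasi-likelihood test, limma 3.58.1 loaded, simulated data used to test it). P-values were adjusted by Benjamini-Hochberg over all genes tested, with 0.05 as the threshold. SE was computed as |log2 fold change| over the root of the test's F value. CPM is given as mean ± SD, n = 3. Positions and promoters are those of RefSeq GRCm38.p6, where 73 members matched by gene ID and 5 by symbol, all 73 with a chromosome in the table having the same one. Exonic lengths are GENCODE M21, and 23 members share exonic bases with another gene. DESeq2 1.42.0, RLE factors, other filters, a fit of the groups compared, left-out libraries, a replicate block and an Rn45s term were alternatives.

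The members and lists were chosen with earlier results of these data known. Named were, per comparison, the called members (at most 8 per direction by p) or, with fewer than 5 called, the 5 with the smallest p, the member with the highest mean CPM of each class, Col4a1, Col4a2, Lama1, Lamc1, Itgb1 and Itgav, and 2 genes per pathway list. Other genes were named after their values were seen. The siRNA-label group against P4 was not analysed here.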

Additional observations from a re-analysis of the deposited data

How the results depend on the processing

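The counts in this section are of members only, and the share of all genes called under each alternative is not given beside them. Members called in stroke against adult control (3) were 15 with DESeq2 (5 higher, 10 lower), 0 with the Rn45s class as a term, and 0 to 7 when 1 library was left out. In the siRNA-label group against stroke (0), DESeq2 called 4 and a fit of the 2 groups 5; leaving out a library gave 0. In the siRNA-label group against adult control (0), DESeq2 called 1, and leaving out a library gave 0 to 1 (1 without adult control 3). In P4 against adult control (14), a fit of the 2 groups called 8, and leaving out a library gave 9 (without P4 4) to 16. In stroke against P4 (18), a replicate block, fitted on the 2 groups, called 29 (17 higher, 12 lower) and called 0 in the siRNA-label group against adult control; without the block the 2-group fit called 26. Same-numbered libraries did not deviate together throughout (r = 0.06, -0.19 and -0.34 for adult control with siRNA-label). For stroke with P4, r was 0.16, 0.01 and 0.15. A pair with different numbers, adult control 2 with siRNA-label 3, had r = 0.48. With 3 libraries a group, these values cannot tell whether same-numbered libraries share a batch. The test of any group difference (22) gave 15 to 29. Of 449 values of named members under an alternative, 402 stayed on their side of the threshold, 34 lost and 13 gained a call, and no sign reversed. The cause of these shifts was not tested. RLE factors in place of TMM factors shifted the scaling common to all genes, averaged over the libraries of a group. On the log2 scale the shift was -0.11 in stroke against adult control and -0.12 in stroke against P4. In these comparisons 3 and 18 members were called as before. Col8a2 was too low to test, and members under 1 CPM rest on few counts: 3 counts were 0.0562 to 0.342 CPM by library.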

Other observations

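A further set of matrix genes, picked after their values were seen, was high in P4 without passing against adult control. Col8a1, a short-chain network collagen of vessel walls, was at 2.49, 9.67 and 16.8 CPM in P4 and 0.714, 0.273 and 1.94 CPM in adult control (log2 fold change 3.34, SE 1.3, adjusted p = 0.0980). Col5a1, a chain of type V collagen, was at 7.52, 14.7 and 11.4 CPM against 5.51, 0.845 and 0.570 CPM (2.26, SE 0.90, adjusted p = 0.106). No P4 library overlapped with adult control for either gene. Col4a2 was at 17.4, 20.0 and 8.24 CPM in P4 and 4.28, 8.62 and 0.228 CPM in adult control, with overlap.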
